A study of Mus musculus with 2 samples.

Results

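Izumo1r, Tnfrsf4, Tnfrsf9, Tnfrsf18, Ctla4, Pdcd1, Ikzf2, Foxp3, Cd27 and Cd28 are genes of agonist selection, regulatory T cells and costimulation, and their transcripts were followed through the thymus of mice in which Cdc42 was or was not targeted in T cells. They were taken by name from a single-cell matrix, and all 10 were among its 20282 genes. Levels were read by deposited cluster and by library, as UMIs per 1000000 UMIs (CPM). Whole thymus was dissociated and sequenced by 10x 3′ single-cell RNA-seq, with 1 library per condition. The WT library pooled 5 Cdc42f/f mice, and the KO library pooled 5 Cdc42f/f CD4Cre littermates, all 6 weeks old, so that both groups carried the floxed Cdc42 allele and KO mice carried Cre in addition. Cre expressed from the CD4 promoter acts in T-lineage cells from the stage at which Cd4 comes on, so stromal and B-lineage cells are not its target. Cdc42 encodes a small GTPase that controls actin.

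A thymocyte that has rearranged its T cell receptor is first CD4+CD8+ (double positive, DP). Weak receptor engagement by self ligands permits survival and maturation to a CD4 or CD8 single positive (SP) cell, strong engagement leads to deletion, and part of the strongly engaged cells are diverted to agonist-selected fates, among them FOXP3+ regulatory T cells (Treg). Costimulation through CD28 and signals through the TNF receptors OX40 (Tnfrsf4), 4-1BB (Tnfrsf9) and GITR (Tnfrsf18) are known to accompany Treg differentiation, in which CD25+ precursors turn on Foxp3 late.

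The matrix held 13683 cells, 6115 WT and 7568 KO, with 29706197 and 37920214 UMIs and a median of 3192 and 3401 UMIs per cell. A total of 17 barcodes occurred in both libraries, none of them on a cell with a Foxp3 UMI. Clusters are named here by a leading gene. The Rag1 clusters (3636 WT and 4641 KO cells) were DP-like, with 7 DP markers summing to 12022 and 12009 CPM. The Cd5 clusters (535 and 843 cells) were like signalled DP cells, with 6 such markers at 3605 and 3100. The Itm2a cluster (479 and 316) and the Ms4a4b cluster (332 and 396), together called SP clusters, carried 7 SP markers at 8686 and 9543 and at 9679 and 11120, and the signalled DP markers stood at 2830 and 3704 in the first and at 763 and 829 in the second. Cdc42 itself stood at 398 CPM in WT and 356 in KO over all cells, at 455 and 383 in the Cd5 clusters and at 397 and 383 in the Itm2a cluster, but at 447 and 581, higher in KO, in the Ms4a4b cluster, and since 3′ tags need not cover the floxed exon this does not check its deletion. With 1 library per condition no test of the condition was possible. Intervals below are exact 95% intervals that cover counting error only, and they are too narrow where many UMIs of a gene come from few cells.

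The 10 genes lie in a few neighbourhoods of the mouse genome (GRCm38). Tnfrsf4 (chr4:156013843-156016612, plus strand) and Tnfrsf18 (chr4:156026164-156028895, plus strand) are 9552 bases apart with 0 protein-coding genes between them, and Tnfrsf9 lies on the same chromosome (chr4:150914562-150946102, plus strand). Cd28 (chr1:60716800-60773359), Ctla4 (chr1:60887000-60915832) and Icos follow each other on the plus strand, with gaps of 113641 and 62095 bases. Izumo1r (chr9:14885814-14903949, minus strand), Foxp3 (chrX:7573644-7595245, plus strand), Cd27 (chr6:125232622-125237010, minus strand), Pdcd1 (chr1:94038305-94052553, minus strand) and Ikzf2 (chr1:69531214-69687245, minus strand) stand apart.

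Promoters of the genes that were lower in the KO Ms4a4b cluster are shown because their transcripts were low together, except that of Ikzf2, for which the sequence table held no entry. Each is the 250 bases before a RefSeq transcript start (GRCm38.p6), in the direction of transcription, in lower case with motif matches in capitals. They lie at chr9:14903768-14904017 (Izumo1r, minus strand), chr4:156013445-156013694 (Tnfrsf4, plus), chr4:150927749-150927998 (Tnfrsf9, plus, the downstream of 2 starts), chr1:60908775-60909024 (Ctla4, plus) and chrX:7580233-7580482 (Foxp3, plus, the downstream of 2 starts).
Izumo1r: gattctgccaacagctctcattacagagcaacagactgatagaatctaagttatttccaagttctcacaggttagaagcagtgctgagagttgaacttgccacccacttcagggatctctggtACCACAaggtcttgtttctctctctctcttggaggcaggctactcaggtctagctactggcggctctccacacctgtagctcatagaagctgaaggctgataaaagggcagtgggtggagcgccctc
Tnfrsf4: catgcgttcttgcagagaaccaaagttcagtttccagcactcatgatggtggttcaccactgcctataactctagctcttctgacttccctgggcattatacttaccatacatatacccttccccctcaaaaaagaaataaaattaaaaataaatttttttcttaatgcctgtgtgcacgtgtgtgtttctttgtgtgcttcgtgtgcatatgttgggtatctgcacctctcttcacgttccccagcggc
Tnfrsf9: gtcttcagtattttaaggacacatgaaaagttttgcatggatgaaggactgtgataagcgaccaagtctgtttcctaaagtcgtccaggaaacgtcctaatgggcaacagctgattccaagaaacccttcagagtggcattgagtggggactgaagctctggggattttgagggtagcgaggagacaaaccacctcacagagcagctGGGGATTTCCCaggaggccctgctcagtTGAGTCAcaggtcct
Ctla4: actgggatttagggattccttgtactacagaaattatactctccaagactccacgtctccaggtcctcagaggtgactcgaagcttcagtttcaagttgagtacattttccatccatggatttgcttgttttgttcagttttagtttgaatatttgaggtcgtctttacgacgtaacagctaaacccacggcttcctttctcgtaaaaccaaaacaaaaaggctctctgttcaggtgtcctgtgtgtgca
Foxp3: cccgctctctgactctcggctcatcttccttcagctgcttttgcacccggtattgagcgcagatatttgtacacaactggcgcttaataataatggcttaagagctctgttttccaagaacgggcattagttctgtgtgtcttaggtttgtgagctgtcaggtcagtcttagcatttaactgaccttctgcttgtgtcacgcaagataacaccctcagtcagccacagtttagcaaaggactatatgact
Both strands were searched for AP-1 (TGANTCA), RUNX (TGTGGT), NF-kB (by name), forkhead (GTAAACA) and CRE (TGACGTCA) motifs. The Tnfrsf9 window held an AP-1 match that began 15 bases before the start and a pair of overlapping NF-kB matches, which began 43 and 42 bases before it, and the Izumo1r window held a RUNX match, on the opposite strand, 127 bases before it. No match was found in the other windows shown, nor in the windows of the upstream starts of Tnfrsf9 and Foxp3. Of 32851 promoter windows of the same length, 6.75% held the AP-1 motif, 14.0% the RUNX motif, 7.25% the NF-kB motif, 3.17% the forkhead motif and 1.55% the CRE.

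The levels of the 10 genes marked different stages. Izumo1r, which encodes folate receptor 4, a surface protein of Treg and of anergic CD4 cells, stood at 0.92 CPM in the WT Rag1 clusters and 0.91 in KO, at 29.3 and 47.1 in the Cd5 clusters, at 168 and 214 in the Itm2a cluster, and at 137 and 32.7 in the Ms4a4b cluster. It was thus first frequent at the Cd5 stage and, of these 4 stages, highest in the Itm2a cluster in both libraries, and the libraries parted in the Ms4a4b cluster. Tnfrsf4 stood at 0.74 and 1.69 in the Rag1 clusters, at 2 and 5 UMIs in all in the Cd5 clusters, at 130 and 41.5 CPM in the Itm2a cluster and at 98.3 and 28.7 in the Ms4a4b cluster. Tnfrsf9 stood at 7.33 and 8.48 in the Cd5 clusters, at 64.5 and 59.5 in the Itm2a cluster and at 23.6 and 7.50 in the Ms4a4b cluster. OX40 and 4-1BB transcripts were therefore rare before the SP clusters, and of these stages Tnfrsf9 was highest in the Itm2a cluster in both libraries. Tnfrsf18 was already present in the Rag1 clusters, at 55.6 and 57.9, and stood at 36.1 and 45.0 in the Cd5 clusters, at 93.1 and 75.5 in the Itm2a cluster, then at 113 and 93.5 in the Ms4a4b cluster.

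**Figure D1:**
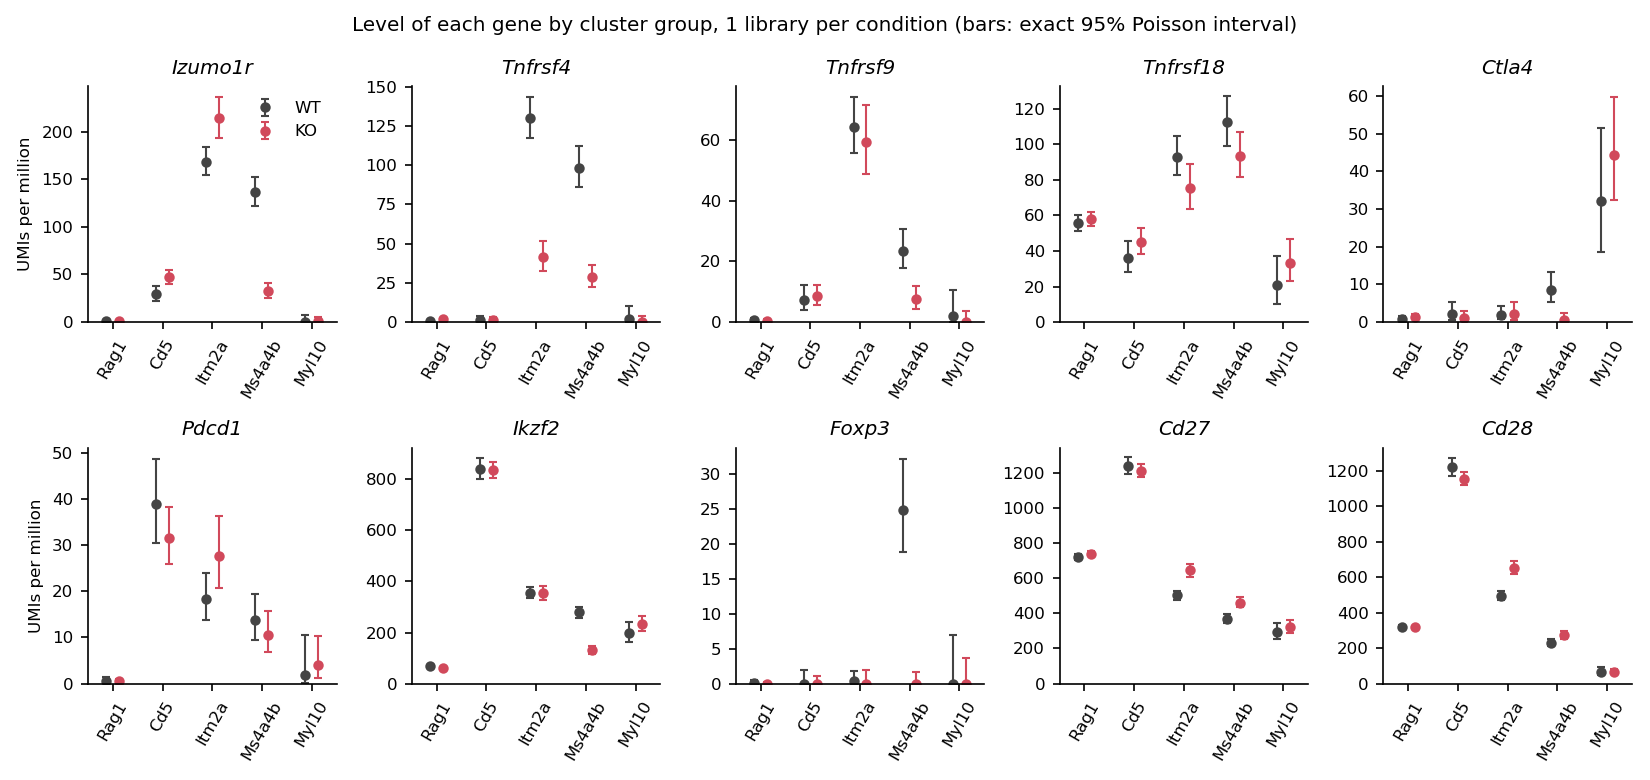
CPM of each of the 10 genes (linear axis) in the Rag1, Cd5, Itm2a, Ms4a4b and Myl10 clusters, with 1 point per library (WT and KO) and bars for the exact 95% Poisson interval. Izumo1r stood at 0.92 in the WT Rag1 clusters and at 168 in the WT Itm2a cluster, and its KO point for the Ms4a4b cluster, at 32.7, lay below the WT point, at 137.

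Ikzf2, Pdcd1, Cd27 and Cd28 were highest at an earlier stage. Ikzf2 encodes Helios, an Ikaros family factor of Treg and of thymocytes under strong receptor signals. It stood at 69.6 and 61.7 CPM in the Rag1 clusters, at 842 and 836 in the Cd5 clusters, at 355 and 355 in the Itm2a cluster and at 279 and 131 in the Ms4a4b cluster. An Ikzf2 UMI was found in 69.9% of WT and 73.5% of KO cells of the Cd5 clusters, against 13.9% and 14.3% in the Rag1 clusters. Pdcd1, the gene of the inhibitory receptor PD-1, was highest in the same clusters, at 38.8 and 31.6, and stood at 18.3 and 27.6 in the Itm2a cluster, then at 13.7 and 10.6 in the Ms4a4b cluster. Cd28 ran from 320 and 318 in the Rag1 clusters to 1220 and 1155 in the Cd5 clusters and down to 230 and 275 in the Ms4a4b cluster, and Cd27, a costimulatory TNF receptor of most thymocytes, took the same course from 721 and 741 through 1243 and 1212 to 371 and 462. Of these 4 stages the Cd5 clusters thus held the highest level of each of the 4 genes in both libraries. Ctla4, an inhibitory receptor that competes with CD28, was rare at every one of these stages, with at most 20 UMIs in a library in the Cd5, Itm2a or Ms4a4b clusters.

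Over single clusters with both libraries summed, the order of levels separated the genes further. Izumo1r ran from 186 CPM in the Itm2a cluster to 144 in cluster 18, a group of 32 cells in all, to 85.3 in the Ms4a4b cluster and to 41.6 and 38.8 in the Cd5 clusters 5 and 9, which did not differ beyond counting error. Tnfrsf4 ran from 96.1 in the Itm2a cluster to 64.0 in the Ms4a4b cluster and 39.3 in the Cd74 cluster, which carried B and dendritic cell markers. Tnfrsf9 was at 62.6 in the Itm2a cluster and at 15.7 in the Ms4a4b cluster, the latter not separable from the 13.1 of cluster 9. As a guide to background, Izumo1r had no UMI in the 63 WT and 87 KO cells of the Cd74 cluster, whose median depths were 1202 and 4284 UMIs, and 0.28% of cells had one in the Rag1 clusters of each library, at median depths of 2823 and 3097. Tnfrsf4 was seen in 0.22% of WT and 0.54% of KO cells of the Rag1 clusters. Tnfrsf18 had no UMI in the 30 WT and 49 KO cells of the macrophage-like Apoe cluster, at median depths of 875 and 695. The shares given for the SP clusters stood above these.

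The KO and WT libraries were then set against each other within a stage, which asks where along maturation the transcripts of these genes differed when Cdc42 was targeted. A gene was counted as higher or lower if its level differed at least 1.5-fold, with 0.5 added to both sums, and it had at least 20 UMIs over both libraries. In the Rag1 clusters 7 of the 10 genes had that many, and 2 were higher in KO (Tnfrsf4 on 8 and 26 UMIs, with a log2 ratio of 1.14, 0.02 to 2.55, and Ctla4 on 9 and 20) and 0 lower, against 5.80% of 12983 genes higher and 2.57% lower. Tnfrsf4 and Ctla4 reached the minimum there only through KO. In the Cd5 clusters 7 genes had enough UMIs, and 1 was higher in KO (Izumo1r) and 0 lower, where 7.02% of 9854 genes were higher and 3.56% lower. Of the 8 with enough UMIs in the Itm2a cluster, 1 was higher (Pdcd1) and 1 lower (Tnfrsf4), against 11.3% and 4.95% of 9790 genes. All 10 had enough UMIs in the Ms4a4b cluster, where 0 were higher and 6 lower (Izumo1r, Tnfrsf4, Tnfrsf9, Ctla4, Ikzf2 and Foxp3), against 21.0% of 9586 genes higher and 5.55% lower. Of the 6, Izumo1r, Tnfrsf4 and Ikzf2 had at least 20 UMIs in each library. Foxp3 (58 WT and 0 KO UMIs), Ctla4 (20 and 1) and Tnfrsf9 (55 and 17) reached the minimum only through WT. Their calls in this cluster thus follow in part from the filter, which all genes shared. The median log2 ratio of KO over WT was -1.36 for the 10 genes there and 0.24 for all genes, and it was 0.17 and 0.16 in the Itm2a cluster and -0.011 and 0.037 in the Cd5 clusters.

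That background depended on the scaling, and the median ribosomal protein gene stood at -0.48 in the Ms4a4b cluster. Under TMM scaling, which brought the median of all genes to -0.02, 9.48% of genes were higher and 11.3% lower, and 7 of the 10 genes were lower, Pdcd1 being the additional one. Cells of the Ms4a4b cluster were also shallower in KO, with a median of 5032 UMIs against 6738 in WT. The 7 gamma-delta T markers were all detected there and summed to 241 CPM in WT and 444 in KO, the 6 innate-like T markers, all detected, to 553 and 388, and the 6 macrophage markers, all detected, to 7.30 and 37.1. The part of these differences in the ratios of the 10 genes was not tested.

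**Figure D2:**
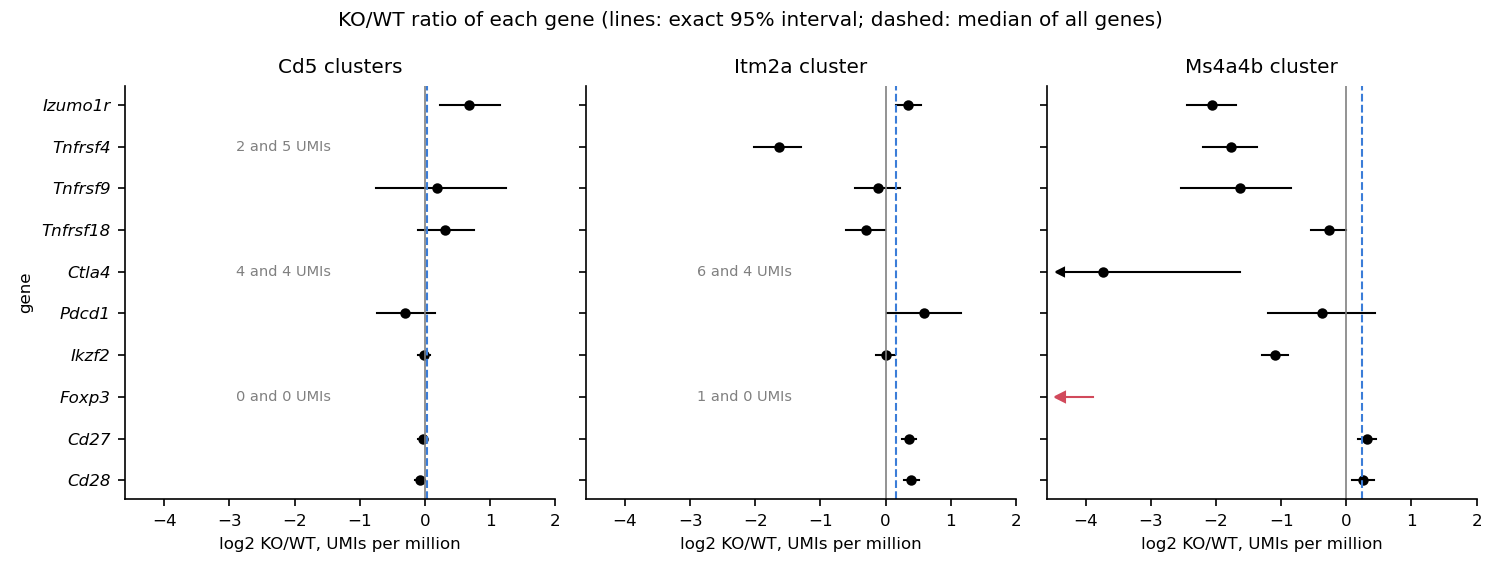
Log2 ratio of KO over WT (x axis, positive values higher in KO) for each of the 10 genes in the Cd5, Itm2a and Ms4a4b clusters, with exact 95% counting intervals. Izumo1r lay at 0.67 and 0.35 in the Cd5 and Itm2a clusters and at -2.06 in the Ms4a4b cluster, and Tnfrsf4 lay at -1.64 and -1.77 in the Itm2a and Ms4a4b clusters.

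The ratio of the surface receptor Izumo1r had opposite signs at different stages. It had 56 UMIs in 26 WT cells and 161 UMIs in 67 KO cells of the Cd5 clusters, so that 4.86% and 7.95% of cells were positive and the log2 ratio was 0.67 (0.24 to 1.15). Positive cells made up 33.6% of the WT and 36.4% of the KO Itm2a cluster, with 514 and 403 UMIs and a log2 ratio of 0.35 (0.15 to 0.54). Izumo1r was thus carried by a similar or larger share of KO cells before the Ms4a4b cluster. There, 318 UMIs in 109 WT cells stood against 74 UMIs in 39 KO cells, 32.8% against 9.85% of cells, and the level was 4.18-fold lower in KO (log2 ratio -2.06, -2.45 to -1.70). With every cell thinned to 1000 UMIs the shares were 9.91% and 2.42%. Izumo1r stayed lower in the KO Ms4a4b cluster under each of 11 settings of scaling and cell selection, at -2.32 to -2.06, and higher in the KO Itm2a cluster, at 0.18 to 0.54.

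The TNF receptors differed among themselves. Tnfrsf4 had 396 UMIs in 91 WT cells of the Itm2a cluster and 78 UMIs in 23 KO cells, 19.0% and 7.28% of cells, and was 3.13-fold lower in KO (log2 ratio -1.64, -2.02 to -1.29). A single WT cell held 37 of those UMIs, and the 10% of positive WT cells with most Tnfrsf4 held 48.2% of them. Later, in the Ms4a4b cluster, it had 229 UMIs in 78 WT cells and 65 in 35 KO cells, 23.5% and 8.84% of cells, 3.43-fold lower in KO (log2 ratio -1.77, -2.20 to -1.37), and 8.08% and 2.68% of cells were positive at 1000 UMIs. OX40 was therefore lower in KO at both SP stages, and the ratios differed by 0.13 (-0.42 to 0.69). Tnfrsf9 had 197 UMIs in 60 WT cells and 112 in 34 KO cells of the Itm2a cluster, with a log2 ratio of -0.11 (-0.46 to 0.22). For the Ms4a4b cluster the values were 55 UMIs in 35 WT cells and 17 in 12 KO cells, 10.5% and 3.03% of cells, a level 3.15-fold lower in KO (log2 ratio -1.63, -2.53 to -0.85), with thinned shares of 2.32% and 0.62%. For 4-1BB the KO library was thus low in the later SP cells and near WT in the earlier, and the ratios of both stages differed by 1.51 (0.65 to 2.48). Tnfrsf18 had 262 UMIs in 150 WT cells and 212 in 142 KO cells of the Ms4a4b cluster, 45.2% and 35.9% of cells, with a log2 ratio of -0.27 (-0.53 to 0.00). Thinned to 1000 UMIs, 10.8% and 9.0% of cells had a Tnfrsf18 UMI. GITR, which sits next to Tnfrsf4 in the genome, was nearer to WT than Tnfrsf4 in the Itm2a and Ms4a4b clusters, and in the Itm2a cluster its direction depended on how cells were clustered (-0.30 as deposited at resolution 1.5, above 0 at resolutions 1.8 and 2).

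Of the inhibitory receptors, Ctla4 had 20 UMIs in 16 WT cells and 1 UMI in 1 KO cell of the Ms4a4b cluster, a log2 ratio of -3.73 (-9.66 to -1.64). It had 6 and 4 UMIs in the Itm2a cluster. Pdcd1 had 56 UMIs in 36 WT cells and 52 in 33 KO cells of the Itm2a cluster, 7.52% and 10.4% of cells, with a log2 ratio of 0.59 (0.02 to 1.16). Its 32 and 24 UMIs in the Ms4a4b cluster gave no clear direction, and the interval of its ratio, -1.20 to 0.43, held no difference and a more than 1.5-fold lower level alike. PD-1 transcripts were too few for a statement at this depth beyond those intervals.

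Among the transcription factors, Ikzf2 differed by little before the Ms4a4b cluster as deposited at resolution 1.5. The interval of its log2 ratio was -0.31 to -0.03 in the Rag1 clusters, -0.10 to 0.08 in the Cd5 clusters and -0.14 to 0.14 in the Itm2a cluster, where the ratio ranged from -0.51 at resolutions 1.8 and 2 to 0.10 in thinned cells. Then 649 UMIs in 147 WT cells stood against 297 in 77 KO cells in the Ms4a4b cluster, 44.3% and 19.4% of cells, 2.13-fold lower in KO (log2 ratio -1.09, -1.29 to -0.89). Thinned shares were 17.4% and 6.83%. Helios transcripts were spread unevenly, and the 10% of positive cells with most Ikzf2 held 39.4% of the WT and 39.7% of the KO UMIs there. Foxp3, the lineage factor of Treg, had 58 UMIs in 20 WT cells of the Ms4a4b cluster and 0 UMIs in KO. At a floor of 3 UMIs its level was at least 18.8-fold lower in KO, and the exact interval of its log2 ratio ran up to -3.89.

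The costimulators Cd27 and Cd28 went the other way by a small amount. Cd27 had 863 WT and 1047 KO UMIs in the Ms4a4b cluster, in 84.9% and 87.4% of cells, and Cd28 had 535 and 624 in 64.5% and 66.9%. Their log2 ratios were 0.32 (0.19 to 0.45) and 0.26 (0.09 to 0.43), close to the 0.24 of the median gene, and under TMM scaling they were 0.06 and 0.0010. The ratios were 0.36 and 0.40 in the Itm2a cluster, and -0.036 and -0.079 in the Cd5 clusters. The transcripts of the receptors that most thymocytes carry were thus not lower in KO in the SP clusters, unlike those of Izumo1r, Tnfrsf4 and Tnfrsf9 in the Ms4a4b cluster. Some genes that neighbour each other differed alike and others did not. Icos, which lies beside Ctla4, had 216 WT and 58 KO UMIs in the Ms4a4b cluster and was lower in KO, as Ctla4 was. Tnfrsf4 was 3.43-fold lower in the KO Ms4a4b cluster with its neighbour Tnfrsf18 at -0.27 on the log2 scale, and Ctla4, at 20 and 1 UMIs, lies beside Cd28, at 0.26. Tnfrsf9, whose downstream promoter holds AP-1 and NF-kB matches, was 3.15-fold lower there, and Tnfrsf4, whose window holds none of the motifs, 3.43-fold.

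Summed without Cd27 and Cd28, the other 8 genes stood at 956 CPM in WT and 970 in KO in the Cd5 clusters, at 831 and 775 in the Itm2a cluster and at 697 and 304 in the Ms4a4b cluster. The log2 ratios were 0.021 (-0.06 to 0.10), -0.10 (-0.19 to -0.01) and -1.19 (-1.33 to -1.07). In the Rag1 clusters the sums were 129 and 124. Ikzf2 gave 88.0% and 86.1% of these UMIs in the Cd5 clusters and 40.0% and 43.0% in the Ms4a4b cluster, so the sum follows Ikzf2 at the earlier stage.

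Foxp3 was seen in 22 cells, all of them in the WT library. They held 60 UMIs, from 1 to 6 each with a median of 2.5, and 14 cells held at least 2. Their depths ran from 3242 to 11022 UMIs with a median of 5742. A total of 20 lay in the Ms4a4b cluster, 1 in the Itm2a cluster and 1 in cluster 3, one of the Rag1 clusters, where 1 of 3636 WT cells (0.0275%) was positive at a median depth of 2823. Among SP cells 21 of 811 in WT were positive (2.59%, 1.61 to 3.93), against 0 of 712 in KO. At a floor of 3 cells this allows a KO share of cells with a Foxp3 UMI of up to 0.421%, and the exact upper limit was 0.517%. Neither value limits the share of cells that express it. Among all 7568 KO cells the limit at that floor was 0.0396%. The median depth of SP cells was 6134 in WT and 5200 in KO, and with cells thinned to 1000 UMIs the WT share was 1.07%.

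The Foxp3-positive cells carried others of the 10 genes. All 22 had a UMI of at least 1 of Izumo1r, Tnfrsf4, Tnfrsf9, Tnfrsf18, Ctla4, Pdcd1 and Ikzf2, and 14 had at least 3 of these 7. At least 1 is common in this cell type, however. With Foxp3 in place of Ikzf2, 69.3% of all WT Ms4a4b cluster cells had at least 1 of 7 and 16.3% at least 3. Within the WT Ms4a4b cluster, Tnfrsf18 was found in 80.0% of the 20 Foxp3-positive cells and 42.9% of the 312 Foxp3-negative cells, Tnfrsf4 in 65.0% and 20.8%, Tnfrsf9 in 10 of the 20 and 8.0%, and Ctla4 in 40.0% and 2.6%. Each of these 4 genes was thus more frequent in the Foxp3-positive cells, although their median depth of 5742 was below the 6807 of the negative cells. Izumo1r was found in 55.0% and 31.4%, Ikzf2 in 70.0% and 42.6%, and Cd28 in 55.0% and 65.1%. In KO cells of the cluster the shares were 9.8% for Izumo1r and 19.4% for Ikzf2. At 1000 UMIs per cell, Foxp3-negative WT cells had Izumo1r in 9.30% and KO cells in 2.42%, and Ikzf2 in 15.2% and 6.83%.

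**Figure D3:**
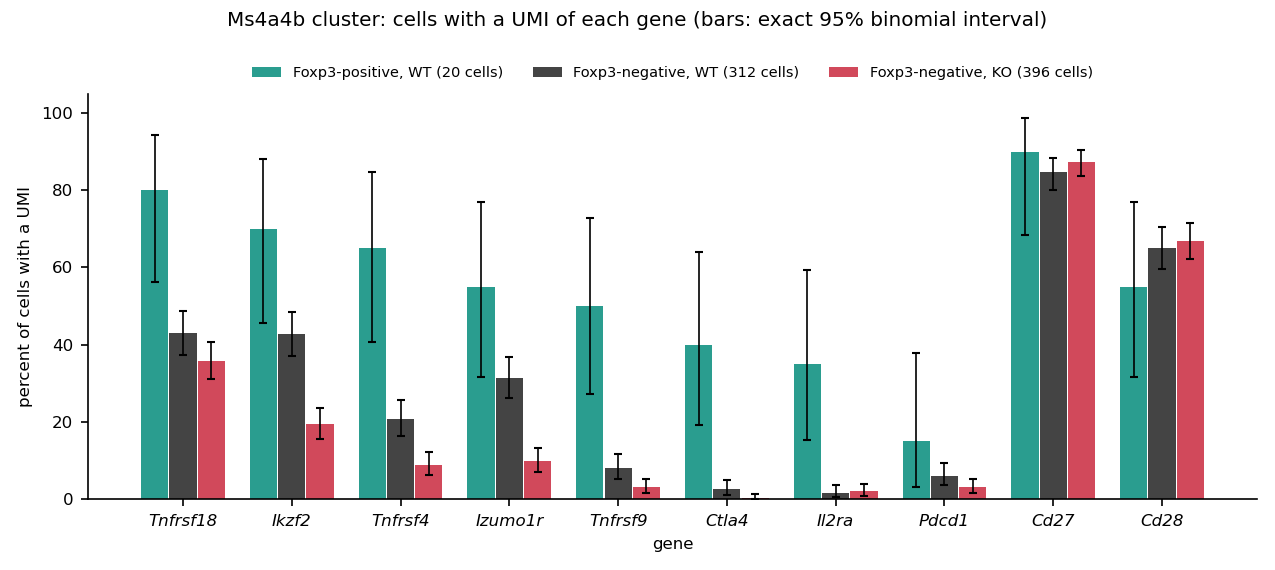
Share of cells (percent, y axis) of the Ms4a4b cluster with at least 1 UMI of each gene in WT Foxp3-positive cells (20), WT Foxp3-negative cells (312) and KO cells (396), with exact 95% binomial intervals. Tnfrsf4 was found in 65.0%, 20.8% and 8.8% of the groups and Tnfrsf18 in 80.0%, 42.9% and 35.9%.

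Leaving out the 20 Foxp3-positive cells, an alternative added after the data were seen, kept 4 of the 6 genes at least 1.5-fold lower in the KO Ms4a4b cluster, where 5.42% of 9528 genes were lower. Izumo1r then stood at 130 CPM in WT against 32.7 in KO (log2 ratio -1.99, -2.39 to -1.62), Tnfrsf4 at 61.8 against 28.7 (-1.10, -1.56 to -0.67), Tnfrsf9 had 40 against 17 UMIs (-1.24, -2.18 to -0.41) and Ikzf2 stood at 236 against 131 (-0.85, -1.06 to -0.64). Tnfrsf18 was at 91.1 and 93.5, and Ctla4 had 8 and 1 UMIs, under the minimum. The Foxp3-positive cells thus held 92 of the 229 Tnfrsf4 UMIs and 29 of the 318 Izumo1r UMIs of the WT cluster.

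By the fixed rule, the genes most enriched in Foxp3-positive over Foxp3-negative WT SP cells were Ctla4, Cd83, Nrp1, Gsta4, Il2ra, Rgs1, Gm37137, H2-Q6, Nt5e and Hopx. Ctla4 stood at 98.1 against 2.66 CPM, and Il2ra, the gene of CD25, at 172 against 8.18. Gsta4, a glutathione transferase, stood at 384 against 14.8. This ranking rests on 21 cells and is a description. These companions were then read in both libraries of the Ms4a4b cluster. Cd83 had 14 WT and 0 KO UMIs, Gsta4 72 and 14, Il2ra 30 and 13, and Nt5e, the gene of CD73, 39 and 16. Nrp1, which encodes neuropilin-1 and marks thymus-derived Treg, had 35 UMIs in each library, in 17 WT and 29 KO cells, and Hopx 63 and 70. The companions of Foxp3 were therefore not all lower in KO. They were picked for being high in WT cells, of which 20 lie in this cluster, so lower KO counts partly follow from the choice. Without Foxp3-positive cells the log2 ratio was -1.10 (-2.16 to -0.17) for Gsta4 and -0.92 (-1.91 to -0.02) for Nt5e. It was 0.48 (-0.84 to 1.91) for Il2ra, 1.16 (0.28 to 2.17) for Nrp1 and 0.57 (0.02 to 1.14) for Hopx, and the interval of Cd83 ran up to 2.38.

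Cells that carried several of the genes at once made up a smaller share of the KO Ms4a4b cluster. Of Ms4a4b cluster cells, 69.3% in WT and 45.5% in KO had a UMI of at least 1 of the 7 genes other than Ikzf2, Cd27 and Cd28, 35.2% and 12.6% of at least 2, and 16.3% and 2.78% of at least 3. At least 4 were found in 16 of 332 WT cells (4.82%, 2.78 to 7.71) and in 0 of 396 KO cells (0.758% at a floor of 3 cells, exact upper limit 0.927%). Thinned to 1000 UMIs per cell, with genes taken as independent draws, at least 2 remained in 6.11% of WT and 1.20% of KO cells and at least 3 in 1.73% and 0.047%. The libraries lay closer in the Itm2a cluster, with 59.3% and 58.5% for at least 1, 29.9% and 23.4% for at least 2, and 11.9% and 7.28% for at least 3. At least 2 were found in 3.93% of WT and 6.29% of KO cells of the Cd5 clusters. Such cells were thus no smaller a share of KO than of WT at the Cd5 stage.

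Coreceptor transcripts split the SP cells. Cells of the Itm2a and Ms4a4b clusters with a Cd4 UMI and no Cd8a or Cd8b1 UMI (Cd4-only, 206 WT and 168 KO) were set against cells with a Cd8a or Cd8b1 UMI and no Cd4 UMI (Cd8-only, 245 and 162). Cells with both made up 25.2% of WT and 35.4% of KO cells there. A missing UMI depends on depth, and median depths were 6091 and 5269 in Cd4-only and 6700 and 4725 in Cd8-only cells. In WT, Tnfrsf4 stood at 224 CPM in Cd4-only and 9.17 in Cd8-only cells, 24.4-fold apart, and in KO at 70.0 and 15.6, 4.48-fold apart. The WT ratio of Tnfrsf4 was the highest among the 10 genes. Izumo1r was 3.57-fold higher in Cd4-only cells in WT (219 against 61.3) and 3.88-fold in KO (173 against 43 UMIs). Tnfrsf9 was at 79.3 and 33.8 in WT and at 35.5 and 44.7 in KO, and Tnfrsf18 at 136 and 68.8 in WT and at 81.9 and 87.1 in KO. The log2 ratio of Cd4-only over Cd8-only cells was 1.22 (0.76 to 1.71) in WT and -0.33 (-1.04 to 0.37) in KO for Tnfrsf9, and 0.98 (0.64 to 1.33) and -0.09 (-0.56 to 0.39) for Tnfrsf18. Their intervals in KO held 0 and in WT did not. Foxp3 had 19 UMIs in 6 Cd4-only cells, 3 UMIs in 2 Cd8-only cells, and its other SP cells held transcripts of both coreceptors or of neither.

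**Figure D4:**
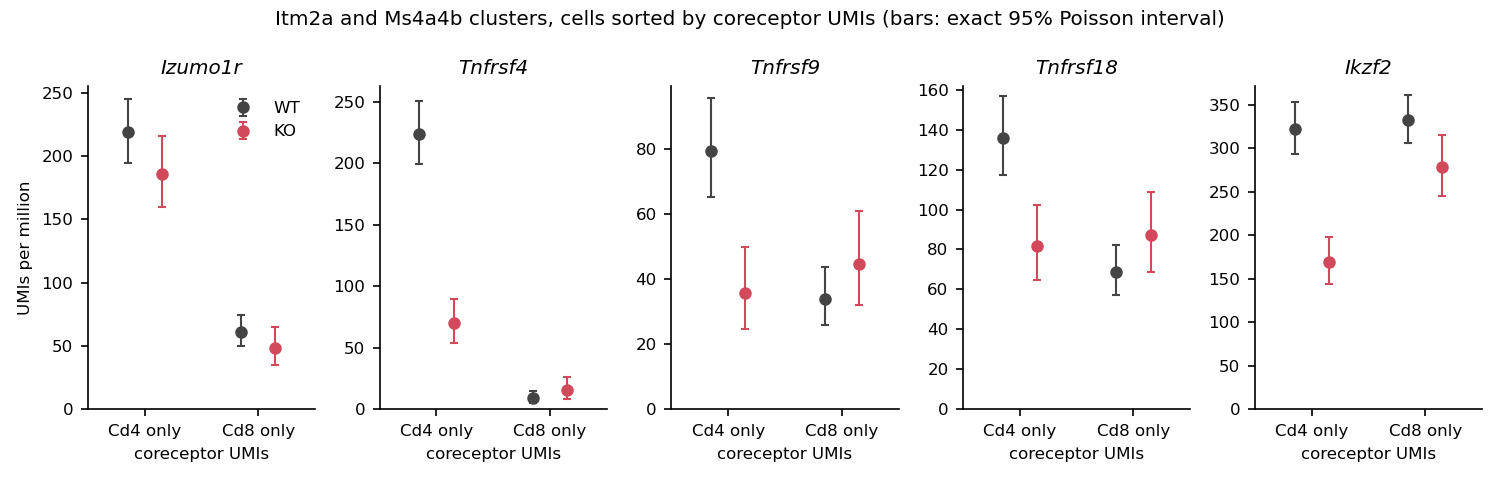
CPM (linear axis) of Izumo1r, Tnfrsf4, Tnfrsf9, Tnfrsf18 and Ikzf2 in Cd4-only and Cd8-only cells of the SP clusters in each library, with exact 95% Poisson intervals. Tnfrsf4 stood at 224 in WT Cd4-only cells, 70.0 in KO Cd4-only cells, 9.17 in WT Cd8-only cells and 15.6 in KO Cd8-only cells.

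Within the Ms4a4b cluster the libraries were also set against each other by coreceptor class. In Cd4-only cells Izumo1r stood at 163 CPM in WT and 27.4 in KO (log2 ratio -2.52, -3.58 to -1.69), Tnfrsf4 at 195 and 45.7 (-2.06, -2.86 to -1.39), Tnfrsf9 had 20 and 4 UMIs (40.1 and 9.14 CPM, interval of the log2 ratio -4.14 to -0.56), and Ikzf2 stood at 311 and 77.7 (-1.99, -2.58 to -1.46) and Tnfrsf18 at 149 and 82.3 (-0.84, -1.47 to -0.26). In Cd8-only cells Izumo1r was at 70.9 and 40.7 (-0.78, -1.58 to -0.07) and Ikzf2 at 275 and 120 (-1.19, -1.62 to -0.79). Ikzf2 was thus lower in KO in both kinds of cell. Cells with neither coreceptor's transcripts (79 WT and 91 KO) gave -3.12 for Izumo1r (278 and 31.2 CPM) and -2.38 for Tnfrsf4 (-3.29 to -1.63), and cells with both (71 and 118) gave -1.42 (-2.22 to -0.68) and -1.96 (-2.91 to -1.13). Izumo1r was thus lower in KO in each of the 4 classes. Tnfrsf4 in Cd8-only cells had 8 and 13 UMIs (1.26, -0.08 to 2.77), and Tnfrsf18 62 and 58 (0.50, -0.04 to 1.04). Tnfrsf9 in Cd8-only cells had 14 UMIs in WT and 1 in KO in the Ms4a4b cluster, and in the Itm2a cluster 45 and 39 (1.18, 0.52 to 1.83). In Cd4-only cells of the Itm2a cluster Izumo1r was higher in KO (251 against 328, 0.39, 0.08 to 0.69), whereas Tnfrsf4 (-1.38), Tnfrsf9 (-0.76), Tnfrsf18 (-0.65) and Ikzf2 (-0.39) were lower. Ikzf2 was higher in KO in Cd8-only cells there (0.44, 0.17 to 0.70) and in cells with neither coreceptor (0.42, 0.16 to 0.67). In cells with both its ratio was 0.31 (-0.04 to 0.67).

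In a finer deposited clustering, at resolution 1.8, most of the 479 WT and 316 KO cells of the Itm2a cluster lay in its clusters 12 and 10. The other cells fell elsewhere. They held many of the Ikzf2 UMIs, as clusters 12 and 10 had 124 and 624 of 1083 in WT and 81 and 251 of 668 in KO. Of these parts, cluster 12 (142 WT and 160 KO cells) had more Itm2a and cluster 10 (316 and 132 cells) less. The KO library therefore held relatively fewer cells in the latter. Izumo1r was higher in KO in both parts, at 178 against 228 CPM in cluster 12 and 169 against 232 in cluster 10. Tnfrsf4 had 13 and 5 UMIs in cluster 12, under the minimum (17.7 against 5.54 CPM, log2 ratio -1.59, -3.51 to -0.09). It stood at 152 against 67.0 CPM in cluster 10 (log2 ratio -1.17, -1.61 to -0.77). Tnfrsf4 thus stood higher in cluster 10 than in cluster 12 in both libraries, and was lower in KO in both parts. What the share of cells in each part adds to the -1.64 of the whole Itm2a cluster was not tested. Pdcd1 in cluster 10 stood at 12.8 against 32.9 (1.36, 0.55 to 2.17), and Ikzf2 in cluster 12 at 169 against 89.8 (-0.91, -1.33 to -0.49).

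Other genes of the pathways were taken from fixed lists, which like the 10 genes were chosen with earlier results of these data known. A list gene with fewer than 20 UMIs in a library reached the minimum only with the UMIs of the other library. Its call, like those of the 10 genes, then follows in part from the filter. Of the 20 genes listed for the Treg programme, 19 were in the matrix. Of these, 13 had at least 20 UMIs in the Ms4a4b cluster, of which 8 were lower in KO and 1 higher, against 5.55% of all genes lower and 21.0% higher, and their median log2 ratio was -0.84 against 0.24 for all genes. Gpr83, a receptor of Treg, had 49 WT and 8 KO UMIs (-2.50, -3.87 to -1.49), and Icos, a costimulator of the CD28 family that lies beside Ctla4, 216 and 58 (-1.85, -2.30 to -1.43). The other lower ones were Ikzf4, Nt5e, Il2ra, Maf, Itgae and Tnfrsf1b, and Prdm1 was higher on 6 and 16 UMIs. Among the lower ones Gpr83, Nt5e (39 and 16 UMIs) and Il2ra (30 and 13) reached the minimum only through WT. Without Foxp3-positive cells Gpr83 had 42 WT and 8 KO UMIs and Icos 200 and 58, but Il2ra had 9 and 13 and was not lower. The list as a whole was not counted anew without those cells. The Itm2a cluster gave 5 of 12 lower and 1 higher (4.95% and 11.3% of all genes), with Itgae, the integrin CD103, at 45 and 3 UMIs and Il2rb, the shared receptor chain for IL-2 and IL-15, at 74 and 18. Itgae and Il2rb reached the minimum only through WT. Gpr83 was at 34.7 and 45.2 CPM there (0.38, -0.05 to 0.80). The Cd5 clusters gave 2 of 6 higher, Nrp1 and Gpr83, where 7.02% of all genes were higher, and 0 lower, with a median of 0.47 against 0.037 for all genes. Nrp1 (6 and 22 UMIs, interval -0.31 to 2.63) and Gpr83 (3 and 21, 0.22 to 4.35) reached the minimum only through KO. Their calls follow in part from the filter, and the interval of Nrp1 held no difference.

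The 16 genes listed for strong receptor signalling gave 6 lower and 2 higher among 15 measured in the Ms4a4b cluster, where 5.55% of all genes were lower and 21.0% higher, with a median of -0.33. The lower ones were the immediate early transcription factors Egr3 (48 and 7 UMIs, -2.65, -4.13 to -1.59), Egr2, Egr1, Nr4a1 and Nr4a3, and Irf4 (20 and 5 UMIs). Egr3 and Irf4 reached the minimum only through WT. Cd5, whose protein level follows receptor signal strength, was higher in KO (256 and 387 CPM, 0.60, 0.44 to 0.75), as was the calcium channel gene Orai1 (0.65). Relative to the median of all genes, 0.24, both were under the 1.5-fold bound. Egr2 was the 1 of 16 higher in the Itm2a cluster (0.64, 0.16 to 1.12), and 0 were lower, Nr4a2, at 54 and 22 UMIs, standing at the edge of the bound at -0.58 (-1.38 to 0.14; 1.51-fold lower with no 0.5 added), with a median of 0.18 against 0.16 for all genes, relative to which Egr2 was under the bound too. In the Cd5 clusters 0 of 15 were past the bound in either direction, with Egr1 at 513 and 409 CPM (-0.33, -0.45 to -0.21).

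The 16 genes listed as mediators of TNF receptor and NF-kB signalling did not share the course of the receptors. All 16 were measured, and in the Ms4a4b cluster 3 were higher in KO (Birc3, Map3k14 and Traf2, the last at 33 and 55 UMIs), a share near the 21.0% of all genes, and 0 lower, with a median of 0.26 against 0.24, relative to which none of the 3 passed the bound. Nfkb1 stood at 87.2 and 68.8 CPM (-0.34, -0.65 to -0.03). In the Itm2a cluster Relb was higher (0.66, under the bound relative to the 0.16 of all genes) and Traf5, an adaptor of OX40 and CD27, lower (34 and 10 UMIs, -1.02, -2.25 to -0.02), and in the Cd5 clusters 0 were past the bound. Of the 10 ligand genes 9 were in the matrix and few were measured. Cd274, the PD-1 ligand PD-L1, had 27 and 40 UMIs in the Ms4a4b cluster and was the 1 of 3 past the bound, where 21.0% of all genes were higher. Il2 had 11 UMIs in each library in the Cd5 clusters, 5.76 CPM in WT and 3.22 in KO (-0.84, -2.19 to 0.51). It was the 1 of 3 lower there, against 3.56% of all genes, and its interval held 0. In the Cd74 cluster Tnfsf4, the OX40 ligand, had 4 UMIs in 1 WT cell and 0 in KO, Cd70 6 and 0, Cd86 13 and 19 and Icosl 6 and 18, so ligand levels could not be compared at this depth.

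Genes of agonist-selected innate-like T cells were mixed. In the Ms4a4b cluster all 13 were measured, with 4 higher in KO (among them Xcl1 at 63 and 177 UMIs, Gata3 and Tbx21) and 2 lower (Zbtb16, the gene of PLZF, at 29 and 5, and Id2 at 203 and 114 CPM), against 21.0% and 5.55% of all genes, and the list median was -0.21 against 0.24. The 177 Xcl1 UMIs came from 9 KO cells. In the Itm2a cluster 3 of 10 were higher (Gzma, Gata3 and Xcl1; 11.3% of all genes were) and 3 lower (4.95%), among them Klrd1, with 41 UMIs in 8 WT cells and 0 in KO, and Zbtb16, with 27 UMIs in 4 WT cells and 0 in KO. These counts rest on few cells, and Klrd1 and Zbtb16 reached the minimum only through WT.

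**Figure D5:**
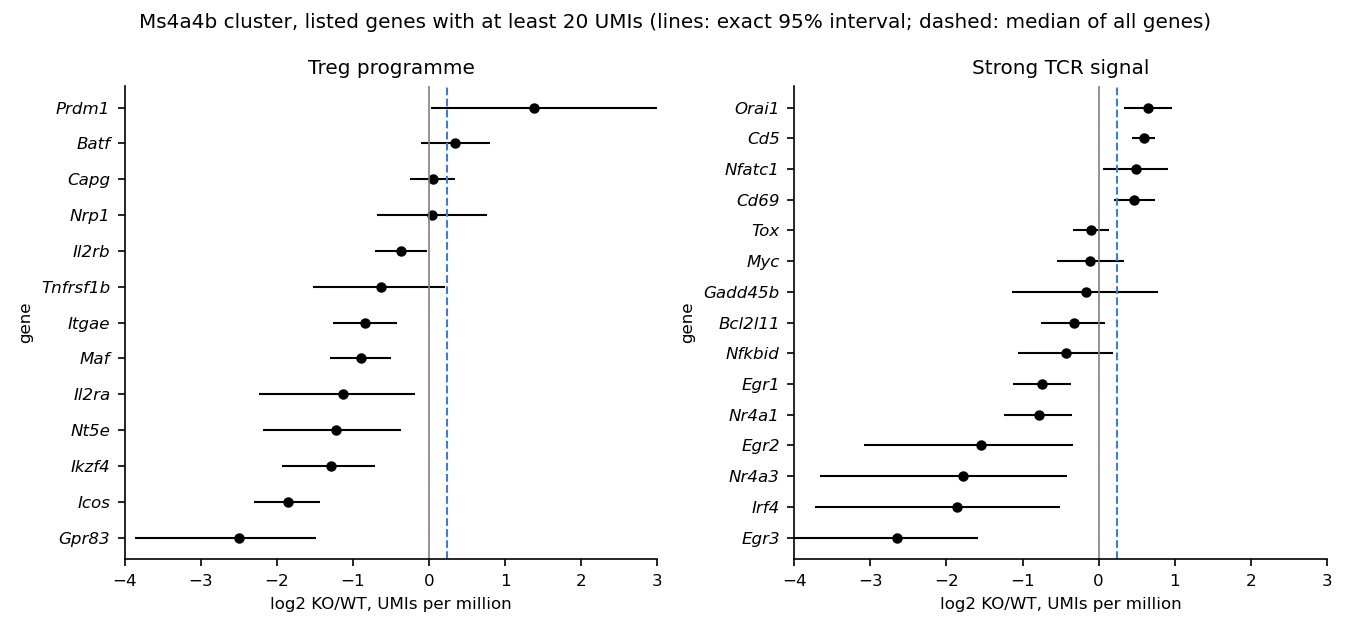
Log2 ratio of KO over WT (axis with positive values higher in KO) in the Ms4a4b cluster, with 1 point per gene. Shown are measured genes of the lists for the Treg programme and for strong receptor signalling. The dashed line marks the median of all genes in this cluster, 0.24. The list medians there were -0.84 for the Treg programme and -0.33 for strong receptor signalling.

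For each gene with at least 100 UMIs the 3 genes with the most similar profile over the 17 T-lineage clusters, libraries summed, were found by Pearson's r of log2(CPM + 1). Izumo1r was most like Btla (r = 0.98), an inhibitory receptor, then Chn2 (0.96) and Ptgfrn (0.95). Tnfrsf4 was most like Acvrl1 (0.96), Tesc (0.95) and Zbtb7b (0.94), the last encoding ThPOK, the factor of the CD4 lineage. Tnfrsf9 was most like Cd40lg (0.96), with Tagap and Gpr83 next. Ikzf2 was most like Nr4a1 (0.94), an immediate early gene of receptor signalling, then A430093F15Rik (0.93) and Plk3 (0.90). Ctla4 had Trgc2 (0.92) first, a gamma chain constant gene, followed by Dkkl1 and Scin. Pdcd1 had Tgfb1 (0.91), A430093F15Rik and Tpm4, Tnfrsf18 had Treml2 (0.97), Leprotl1 and Slc50a1, Cd27 had Pnrc1, Cd84 and Tespa1, and Cd28 had Tram1, Lrp10 and Slc37a3. The clusters share libraries and differ in depth, and each gene was picked from all genes, so these values describe profiles only.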

How the data were processed

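Thymocytes of 5 pooled WT and 5 pooled KO mice gave 1 library each. Per the labels and the submitters' processing notes, the authors aligned reads to mm10 with Cell Ranger 3.0.2 (STAR) and filtered and clustered cells with Seurat. The deposited values are raw counts of UMIs per gene and cell, with a table of clusters at several resolutions, of which 1.5 was used. Cells were assigned to WT or KO by cell names, which hold Cdc45 beside WT or KO, so their match to the Cdc42 samples rests on those last letters. UMIs were summed per cluster and library, divided by the total and multiplied by 1000000 (Python 3.11.15, pandas 2.3.3, scipy 1.17.1), so a level is a share of the cluster's UMIs and moves with abundant genes. Log2 ratios of KO over WT added 0.5 to both sums. Intervals at 95% were exact Poisson for levels, conditional binomial for ratios and Clopper-Pearson for shares. They cover counting error only, and UMIs within 1 cell are not independent. A count of 0 was read against a floor of 3 counts. Shares were also given at 1000 UMIs per cell, by exact expectation, with shallower cells left out. Calls needed 20 UMIs over both libraries and a 1.5-fold difference.

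The 10 genes and the gene lists were chosen with earlier results of these data known. Named beside them were, per list and stage, the genes with the highest and lowest ratios, the 3 genes most like each gene, and the 10 most enriched in Foxp3-positive cells, among genes present in at least 20% of them. Other list genes past the bound were named after their values were seen. Scrublet (scanpy 1.11.5), run for doublets, marked 2 WT and 0 KO cells at its own threshold and so did not work, and no cell was removed in the main values. Its 6% highest scores were removed as an alternative. Scaling by TMM (edgeR 4.0.16) and by DESeq2 1.42.0 size factors, on summed counts and without their tests, was another alternative, as were totals that left out ribosomal protein and mitochondrial genes, other cell filters, minimums, folds and deposited resolutions 1.8 and 2. Coordinates came from GENCODE vM21, in which 19797 of 20282 matrix genes were found, and promoter letters from RefSeq. Promoter entries were found for 8 of the 10 genes. The ratio and interval code was tested on simulated counts.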

Additional observations from a re-analysis of the deposited data

Results flagged for a closer look

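The KO over WT ratio of Izumo1r pointed in opposite directions at different stages, with the intervals of both stages on opposite sides of 0. The log2 ratio in the Cd5 clusters (0.67) minus that in the Ms4a4b cluster (-2.06) was 2.73, with an exact counting interval of 2.15 to 3.35. The ratio in the Itm2a cluster (0.35) minus that in the Ms4a4b cluster was 2.40, with an interval of 1.99 to 2.84. With 1 library per condition, the difference between stages was not tested.

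Cd28 pointed in opposite directions by a smaller amount. Its log2 ratio in the Cd5 clusters (-0.079) minus that in the Itm2a cluster (0.40) was -0.48, and minus that in the Ms4a4b cluster (0.26) was -0.34. These differences were not tested either. The median of all genes stood at 0.037, 0.16 and 0.24 in those stages.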

How the results depend on the processing

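In the Ms4a4b cluster the 8 genes other than Cd27 and Cd28, summed, stayed lower in KO under every setting tried (log2 ratio -1.19 as reported). The ratio was -1.45 with TMM scaling, -1.42 with DESeq2 size factors, -1.37 with totals without ribosomal protein and mitochondrial genes, -1.42 as a mean over cells, -1.43 with cells thinned to 1000 UMIs, -1.04 without Izumo1r and -1.70 as the median of the genes' ratios. It was -0.86 without Foxp3-positive cells and -1.89 in Cd4-only cells, both added after the data were seen. The number of the 10 genes lower there was 4 to 7 (6 as reported), 4 being without Foxp3-positive cells. In the Itm2a cluster the summed ratio (-0.10) was -0.27 with TMM scaling and -0.27 with DESeq2 size factors, -0.21 without ribosomal protein and mitochondrial totals, -0.24 without Izumo1r and -0.36 in Cd4-only cells (added). It turned to 0.12 with clusters at resolution 1.8 or 2, where the cluster with most Itm2a holds a part of these cells and 31 WT and 26 KO cells of the Cd5 clusters. Among Itm2a cluster cells alone it was -0.13 in that part, cluster 12 at resolution 1.8, and 0.0012 in cluster 10 (both added), with some cells in neither. In the Cd5 clusters (0.021) it was 0.18 as the median of the genes' ratios and 0.23 without Ikzf2 (added). Pdcd1, the 1 gene higher in the Itm2a cluster, was lost (count 0) with TMM scaling, DESeq2 size factors, totals without ribosomal protein and mitochondrial genes, doublet scores, resolutions 1.8 and 2, a 2-fold bound, and ratios relative to the median gene. Tnfrsf4, the 1 gene lower there, gave a count of 0 at resolutions 1.8 and 2, where it had 18 UMIs, under the minimum, and the count was 2 with a minimum of 1 UMI. In the Cd5 clusters the gene higher was lost at a 2-fold bound (0) and 1 gene was lower with a minimum of 1 UMI. The Foxp3-positive share of WT SP cells (2.59%) was 1.07% thinned, 4.02% at resolutions 1.8 and 2, and 0.360% of all cells.

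Of 151 alternative values, 115 stayed within counting error or 1.5 times a count, 33 moved and 3 changed sign. A change of sign was counted only where the reported interval left out 0. Among the 115, the summed ratio in the Cd5 clusters, whose interval held 0, also fell below 0. It was -0.0068 with TMM scaling, -0.016 with DESeq2 size factors, -0.020 and -0.014 at resolutions 1.8 and 2, and -0.0060 without Izumo1r. Unless stated, the cause was not tested. No paired analysis was possible because each condition had 1 library, which also left no library to leave out. Depth limits Foxp3, Ctla4 and Pdcd1 most.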

Other observations

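Ctla4 was found mostly outside the SP cells. Its highest level was in the Myl10 cluster, which carried gamma-delta T and double negative markers, with 17 UMIs in 12 of 54 WT cells and 44 UMIs in 30 of 99 KO cells (32.1 and 44.4 UMIs per 1000000 UMIs, CPM, log2 ratio 0.44, -0.37 to 1.37). In the proliferating clusters it had 18 UMIs in 15 of 686 WT cells and 63 UMIs in 38 of 737 KO cells (log2 ratio 1.43, 0.68 to 2.30). Over all cells Ctla4 therefore had 75 WT and 139 KO UMIs, while in the Ms4a4b cluster it had 20 and 1. Ikzf2 was also frequent in the Myl10 cluster, in 70.4% of WT and 72.7% of KO cells, at 198 and 233 CPM.

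Cluster 18 held 24 WT and 8 KO cells at a median of 18317 and 17454 UMIs. Izumo1r had 83 UMIs in 10 of its WT cells and 1 UMI in 1 KO cell, Tnfrsf4 8 and 11 UMIs, Tnfrsf18 17 and 17, and Ikzf2 93 and 11. In the Cd74 cluster Tnfrsf4 had 11 UMIs in 4 of 63 WT cells and 17 UMIs in 4 of 87 KO cells, and Izumo1r and Foxp3 had none.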
